A study of Homo sapiens with 4 samples.

Results

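The 3 microRNAs (miRNAs) described here are hsa-miR-548e-3p, hsa-miR-330-3p and hsa-miR-140-3p, out of 843 distinct mature names in the deposited table. They were chosen by their probe ratio in these same libraries, because all 3 were far lower with the positive probe than with the negative probe in both cell lines, so that difference is given as a description and carries no test. HGC27 and AGS are established human gastric cancer cell lines, grown in RPMI-1640 and in DMEM/F12 medium respectively. In both, the region of FN1, the gene of the matrix protein fibronectin, that follows its coding sequence (the 3′-UTR) was stably overexpressed after lentiviral transfer, and no library without this overexpression was analysed here. A biotinylated RNA probe on streptavidin beads was incubated with cell lysate, and the miRNAs recovered on the beads were sequenced. The 4 libraries were HGC27 with the negative probe, HGC27 with the positive probe, AGS with the negative probe and AGS with the positive probe, with 1 library for each. The study's methods speak of antisense RNA on the beads and the labels of a transcript or its antisense, but neither ties a strand to the positive or the negative probe, so no ratio below is read as binding to a strand.

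A miRNA is cut from a hairpin RNA whose 5′ arm (5p) and 3′ arm (3p) can each yield a mature strand, and the strand kept by an Argonaute protein guides it to target mRNAs. Pairing rests mainly on the seed, bases 2 to 8 of the mature strand, so miRNAs that share a seed are grouped as a family. The miR-548 family is large, specific to primates and derived from short transposable elements. miR-140 is best known from cartilage, where its hairpin is made from an intron of WWP2.

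The mature sequences of the members are shown with those of the opposite arms that were listed, since the report turns on how the arms of 1 hairpin differed. Capitals mark the seed, and the sequences are those of the deposited table.
hsa-miR-548e-3p: aAAAACUGagacuacuuuugca
hsa-miR-330-3p: gCAAAGCAcacggccugcagaga
hsa-miR-140-3p: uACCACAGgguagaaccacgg
hsa-miR-330-5p: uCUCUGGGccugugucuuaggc
hsa-miR-140-5p: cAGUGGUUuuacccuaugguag

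The 3 members shared the 3p arm but no seed. They also differed in base content, since G and C made up 31.8% of the 22 bases of hsa-miR-548e-3p, 60.9% of the 23 bases of hsa-miR-330-3p and 57.1% of the 21 bases of hsa-miR-140-3p. RefSeq (GRCh38.p14) gave the same letters for hsa-miR-330-3p, placed at chr19:45639009-45639031 on the minus strand, and for hsa-miR-140-3p, placed at chr16:69933142-69933162 on the plus strand. All 3 hairpins lie on the same strand as a protein-coding host gene (GRCh38, GENCODE annotation). The hairpin of miR-548e (chr10:110988926-110989013, plus strand) falls in intron 3 of SHOC2, which encodes a scaffold of the RAS to MAPK pathway. The hairpin of miR-330 (chr19:45638994-45639087, minus strand) falls in an intron of EML2, a microtubule-associated protein, in 7 of the 8 coding transcripts that span it and overlaps an exon in the other. The hairpin of miR-140 (chr16:69933081-69933180, plus strand) falls in intron 16 of WWP2, a ubiquitin ligase.

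In HGC27 the table held 1452832 miRNA counts with the negative probe and 1296853 with the positive probe, and in AGS it held 2955078 and 1527390. A single miRNA, hsa-miR-372-3p, made up 80.8% of the counts of the AGS negative probe library and 37.5% of those of the AGS positive probe library, against at most 0.300% in HGC27. Levels are given as the deposited score, which is tags per 1000000 rounded to whole numbers by the authors, and 3 counts correspond to a score between 0.418 and 1.09 depending on the library. Of every 100000 counts, the members together took 134 with the negative and 9.25 with the positive probe in HGC27, and 43.7 and 0.851 in AGS.

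hsa-miR-548e-3p was recovered almost only with the negative probe. In HGC27 it had 396 counts (score 136) with the negative probe and 6 counts (score 2) with the positive probe, and in AGS it had 485 counts (score 68) and 3 counts (score 1). Both negative probe libraries were far above both positive probe libraries. Per 1000000 tags it was 62.7 times lower with the positive probe in HGC27 (exact 95% interval 28.6 to 172) and 96.2 times lower in AGS (32.7 to 468). All such intervals cover counting error alone, since PCR copies cannot be told from separate molecules in these counts and there was no replicate library. On the log2 scale of score + 1, which was used for all ratios, the differences were −5.51 in HGC27 and −5.11 in AGS.

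hsa-miR-330-3p had 350 counts (score 120) and 30 counts (score 11) in HGC27 with the negative and positive probe. In AGS it had 635 counts (score 88) and 3 counts (score 1). It was low in both positive probe libraries, and lowest in that of AGS. The level per 1000000 tags was 11.1 times lower with the positive probe in HGC27 (7.63 to 16.7) and 126 times lower in AGS (42.9 to 613), with log2 ratios of −3.33 and −5.48. The counting intervals of the 2 lines did not overlap, but with 1 library per group whether the probe ratio differed between the lines was not tested.

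hsa-miR-140-3p had the highest score of the members in both HGC27 libraries and the lowest in the AGS negative probe library. It had 1207 counts (score 415) and 84 counts (score 30) in HGC27 with the negative and positive probe, and 170 counts (score 24) and 7 counts (score 2) in AGS. The HGC27 library with the positive probe thus held a level close to that of the AGS library with the negative probe. The level was 13.7 times lower with the positive probe in HGC27 (10.9 to 17.3) and 14.5 times lower in AGS (6.86 to 36.5), with log2 ratios of −3.75 and −3.06. The intervals of the lines overlapped, and the log2 ratio of AGS lay closer to 0 than its fold because rounding and the added 1 weigh more on low scores.

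**Figure D1:**
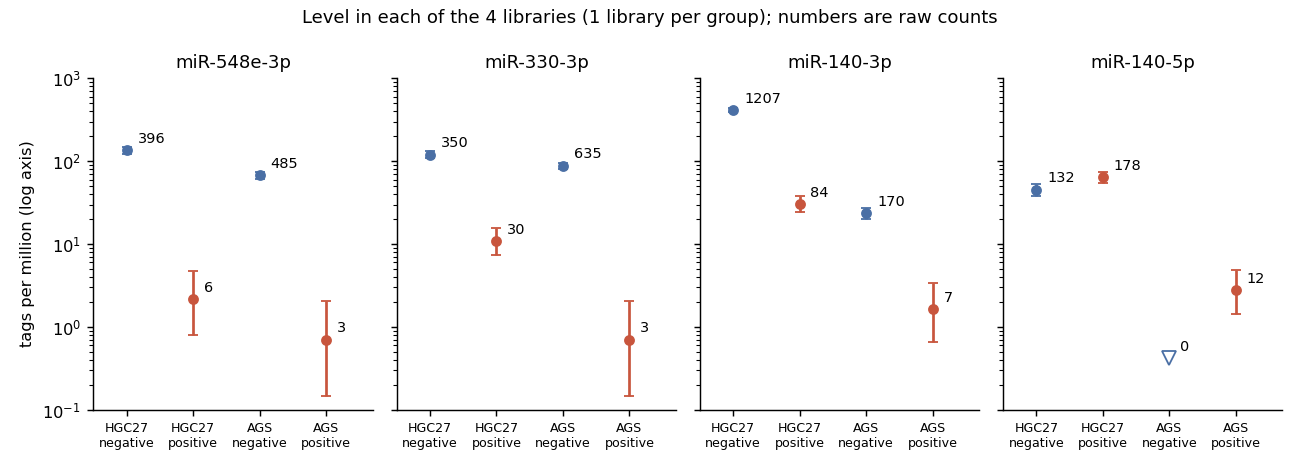
Tags per 1000000 on a log axis in each of the 4 libraries, for the 3 members and for miR-140-5p, with negative probe libraries in blue and positive probe libraries in red. Points are single libraries, bars are exact 95% Poisson intervals of the count, numbers are raw counts, and the open triangle stands for 0 counts, drawn at the value of 3 counts. The 3 members sit lower with the positive probe in both lines, whereas miR-140-5p does not.

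Depletion by itself was common in this table. A ratio of at most 0.5 on the score + 1 was called depleted, and this held for 34.0% of the 755 entries with a count in HGC27 and for 22.7% of the 459 in AGS. Where either library of a line had at least 10 counts for an entry, 33.3% of 366 were depleted in HGC27 and 31.3% of 230 in AGS. Because this ratio chose the members, nothing is read from their being among these entries. Their place near the low end is a description. hsa-miR-548e-3p was number 4 from the most depleted of the 366 entries in HGC27 and number 4 of the 230 in AGS. hsa-miR-330-3p was number 14 and number 3, and hsa-miR-140-3p was number 10 and number 19.

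Other miRNAs were depleted to a like degree. Of 193 entries that reached 10 counts in both lines, 44 were depleted in both lines and 8 had a log2 ratio of −3 or lower in both, a limit set after the values were seen. These 8 were the 3 members and hsa-miR-103a-3p, hsa-miR-203a-3p, hsa-miR-20a-5p, hsa-miR-28-3p and hsa-miR-320a-3p. hsa-miR-140-3p in AGS lay just inside this limit, at −3.06. Just outside it lay 4 entries, with the weaker of their ratios between −3 and −2.5. They were a predicted entry on chromosome 14, at −2.97 in HGC27 and −5.83 in AGS, hsa-miR-484, an miRNA processed without the usual Drosha cleavage, at −2.75 and −2.77, hsa-miR-17-5p, of the cell cycle-linked miR-17-92 cluster, at −2.68 and −4.47, and hsa-miR-16-5p, at −2.52 and −4.00.

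**Figure D2:**
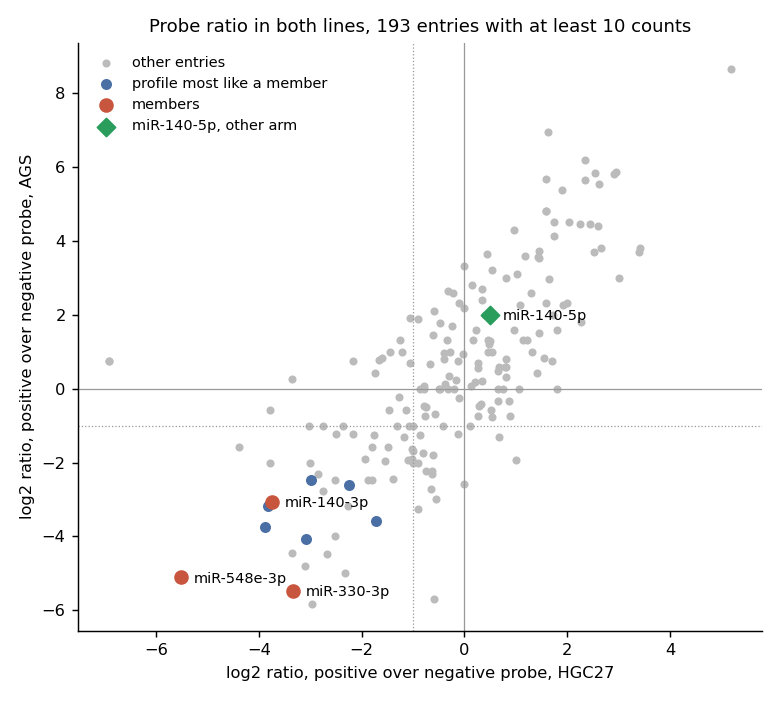
Log2 ratio of positive over negative probe (score + 1) in HGC27 on the x axis and in AGS on the y axis, 1 point for each of 193 entries, with dotted lines at the limit of depletion. The 3 members lie at the lower left, with ratios from −5.51 to −3.06, and miR-140-5p lies at 0.50 and 2.00.

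The opposite arm of miR-140 did not share the difference. hsa-miR-140-5p had 132 counts (score 45) and 178 counts (score 64) in HGC27 with the negative and positive probe, and 0 and 12 counts (scores 0 and 3) in AGS. It was thus higher with the positive probe in each line, where its 3p partner was lower. In HGC27 the level with the positive probe was 1.42 times that with the negative probe (1.13 to 1.79), and in AGS it was at least 6.72-fold higher when 3 counts are taken for the library at 0. The counting error of the 12 counts is not in that bound, and the exact 95% interval of the AGS fold began at 4.67.

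The share of each arm within 1 library does not depend on how the libraries were scaled. In HGC27, hsa-miR-140-3p made up 90.1% of the miR-140 counts with the negative probe (exact Clopper-Pearson 95% interval 88.4 to 91.7, 1339 counts) and 32.1% with the positive probe (26.5 to 38.1, 262 counts). In AGS it made up 100% with the negative probe (97.9 to 100, 170 counts) and 36.8% with the positive probe (16.3 to 61.6, 19 counts). The 3p strand was thus the major one in both negative probe libraries and the minor one in the HGC27 positive probe library, while the interval of the AGS positive probe library reached above an even share. The odds of a miR-140 count being 3p were 19.3 times higher with the negative than with the positive probe in HGC27 (14.0 to 26.9), and in AGS the lower limit of the same odds ratio was 50.6. These intervals again cover counting only, and the 3p counts entered the choice of the member.

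Arms on opposite sides of 0 were common among hairpins. Where both arms reached 10 counts in a line, 25 of 50 hairpins in HGC27 (50.0%) and 14 of 25 in AGS (56.0%) had arms with log2 ratios of opposite sign. The log2 ratio of 3p minus that of 5p was −4.25 for miR-140 in HGC27, where the median hairpin stood at −0.27 with quartiles of −2.11 and 1.14. It was −5.06 in AGS, where the median was −1.99 with quartiles of −4.76 and 1.20. From the lowest difference, miR-140 was number 7 in HGC27 and number 6 in AGS. A depleted 3p arm beside a 5p arm above 0 was seen in 9 hairpins of HGC27 and 8 of AGS, miR-140 among them.

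**Figure D3:**
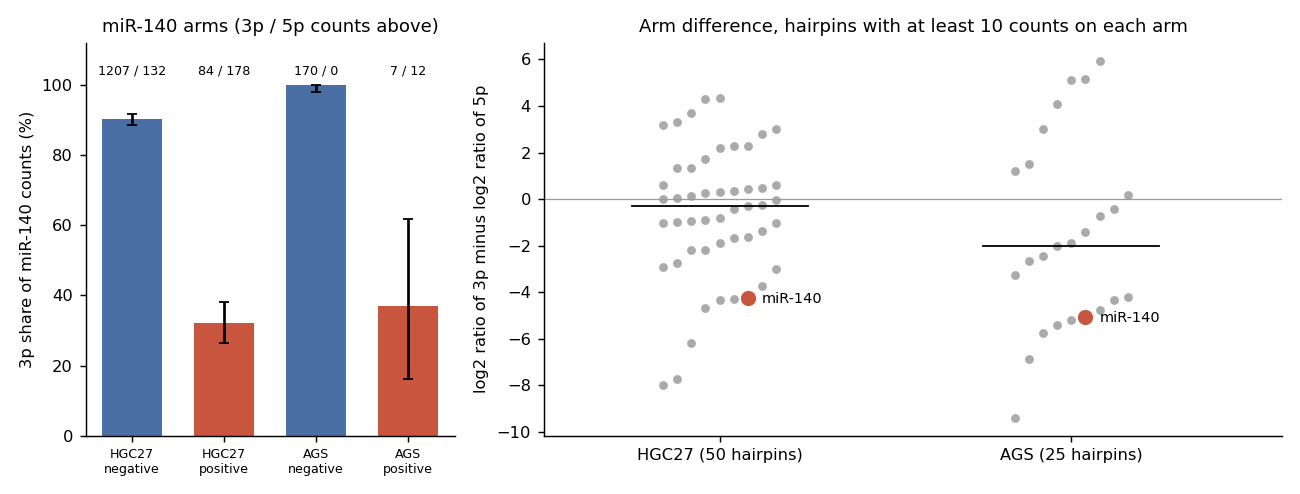
Left, the share of miR-140 counts on the 3p arm (percent) in each library, with exact 95% intervals as bars and the 3p and 5p counts above; right, the log2 probe ratio of the 3p arm minus that of the 5p arm, 1 point per hairpin, with the median as a line. The 3p share is 90.1% and 100% with the negative probe and 32.1% and 36.8% with the positive probe, and miR-140 lies among the lower hairpins in both lines.

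The opposite arms of the other members were too rare for a ratio. hsa-miR-330-5p had 2 counts in the HGC27 negative probe library, 0 in the HGC27 positive and AGS negative probe libraries, and 2 in the AGS positive probe library. The 3p arm therefore made up 99.4% to 100% of miR-330 counts in the 3 libraries with at least 30 counts, and 3 of 5 counts in the AGS positive probe library (60.0%, 14.7 to 94.7). A predicted entry of the authors with 3 counts in the HGC27 positive probe library lay within the hsa-miR-330-5p sequence, and adding it made the 3p share there 90.9%. Its name places it on chromosome 21, whereas the miR-330 hairpin lies on chromosome 19. hsa-miR-548e-5p was not listed.

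The miR-548 list lay on the same side as hsa-miR-548e-3p, but closer to 0. The table held 15 other miR-548 entries, with 789 and 240 summed counts in HGC27 with the negative and positive probe and 246 and 63 in AGS. Of those with a count, 11 of 13 in HGC27 and 6 of 11 in AGS were depleted and 0 were enriched (ratio of at least 2). Of all entries with a count, 34.0% in HGC27 and 22.7% in AGS were depleted, while 283 of 755 and 181 of 459 were enriched. Several of the miR-548 calls rest on few counts. In HGC27, hsa-miR-548h-5p had 2 and 0 counts and hsa-miR-548u 7 and 0 with the negative and positive probe. Of those with at least 10 counts, 5 of 6 in HGC27 and 3 of 4 in AGS were depleted, beside the 33.3% and 31.3% of all such entries given above. Their median log2 ratio was −1.81 in HGC27, where all such entries had −0.12, and −1.58 in AGS, where all had 0.42. These entries resemble each other in sequence, so that reads may have been divided among them in counting and they are not independent.

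hsa-miR-548e-3p had 2 listed seed mates, the only listed entries with its bases 2 to 8, and their sequences are shown to let the likeness be seen, with the seed in capitals.
hsa-miR-548bc: aAAAACUGugauuacuuuugc
hsa-miR-548ar-3p: uAAAACUGcaguuauuuuugc

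Over 21 bases, hsa-miR-548bc differed from hsa-miR-548e-3p at 2 bases and hsa-miR-548ar-3p at 6. hsa-miR-548bc had 81 and 8 counts in HGC27 with the negative and positive probe and 27 and 2 in AGS. It was 9.63 times lower with the positive probe in HGC27 (4.66 to 23.0) and 8.03 times lower in AGS (2.02 to 69.7). On the scale of score + 1 its log2 ratios of −2.86 and −2.32 were the lowest of the other miR-548 entries with at least 10 counts. hsa-miR-548ar-3p was near the detection limit, with 6, 4, 4 and 0 counts in the HGC27 negative, HGC27 positive, AGS negative and AGS positive probe libraries. hsa-miR-330-3p and hsa-miR-140-3p had no listed seed mate.

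The other miR-548 entries with at least 10 counts in a library had other seeds. hsa-miR-548ah-3p, the most abundant of the list in HGC27, had 430 and 111 counts there with the negative and positive probe, and was 3.68 times lower (2.98 to 4.58). It had 3 and 0 counts in AGS. hsa-miR-548o-3p had 178 and 97 counts in HGC27 and 120 and 51 in AGS, and was 1.74 times lower (1.35 to 2.26) and 1.40 times lower (1.00 to 1.98), short of the limit of depletion in both. hsa-miR-548k had 37 and 12 counts in HGC27 and 59 and 8 in AGS, with log2 ratios of −1.49 and −1.58. hsa-miR-548n had 17 and 4 counts in HGC27 and 16 and 0 in AGS, where the exact interval began at 2.30 times lower. hsa-miR-548am-3p had 17 and 4 counts in HGC27 and none in AGS.

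**Figure D4:**
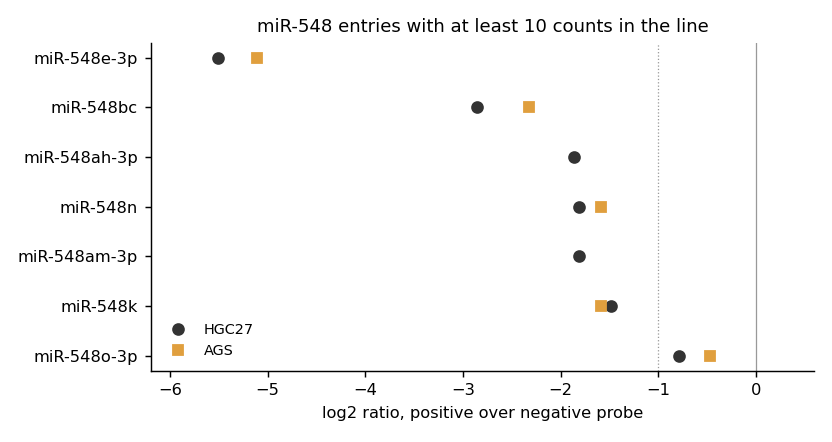
Log2 ratio of positive over negative probe (score + 1) on the x axis for the miR-548 entries that reached 10 counts in the line, circles for HGC27 and squares for AGS, with a dotted line at the limit of depletion. miR-548e-3p lies at −5.51 and −5.11, miR-548bc at −2.86 and −2.32, and miR-548o-3p at −0.78 and −0.47.

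Profiles over the 4 libraries were compared by the Euclidean distance of log2(score + 1) values centred on the mean of each entry, over 189 known entries with at least 100 summed counts. The distances use the same scores as the probe ratio that chose the members, so nearness between members is partly set by that choice. For hsa-miR-548e-3p the nearest were hsa-miR-330-3p (distance 1.72), hsa-miR-28-3p (1.86) and hsa-miR-99b-5p (2.92). For hsa-miR-330-3p they were hsa-miR-28-3p (1.33), hsa-miR-548e-3p (1.72) and hsa-miR-194-5p (2.14). Closer neighbours were found for hsa-miR-140-3p, which are hsa-miR-103a-3p (0.504), hsa-miR-106b-5p (0.732) and hsa-miR-320a-3p (0.960). hsa-miR-103a-3p followed the same profile at a higher level, with scores of 19879 and 1398 in HGC27 with the negative and positive probe and 1697 and 188 in AGS. hsa-miR-28-3p had scores of 991, 66, 255 and 18 in the same order.

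Levels of the members were also compared between the lines, a contrast that the choice of members did not use directly. Each had, however, to fall strongly in both lines, and so to be well recovered with the negative probe in each. This disfavours entries limited to a single line. With the negative probe, the level per 1000000 tags in HGC27 was 2.02 times that in AGS for hsa-miR-548e-3p (1.76 to 2.31), 1.36 times for hsa-miR-330-3p (1.19 to 1.55) and 17.5 times for hsa-miR-140-3p (14.9 to 20.7). With the positive probe the folds were 3.09 (0.660 to 19.1), 15.5 (4.81 to 79.2) and 18.6 (8.62 to 47.6). These folds depend on hsa-miR-372-3p. With it left out of the totals, a setting added after the data were seen, the negative probe level in HGC27 was 3.13 times lower than in AGS for hsa-miR-548e-3p and 4.64 times lower for hsa-miR-330-3p, both turned in direction, and 2.77 times higher for hsa-miR-140-3p. With the positive probe it was 1.48, 7.39 and 8.86 times higher. The order of the members thus differed between the lines, with hsa-miR-140-3p first in HGC27 and last in AGS with the negative probe. With the positive probe in AGS, the 3 members had 3, 3 and 7 counts and their counting intervals overlapped.

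No member passed the test of this contrast. As their choice disfavoured entries limited to a single line, this is not set against the share of entries called. The raw counts of all 4 libraries were fitted in edgeR with the probe as covariate, and the quasi-likelihood test with Benjamini-Hochberg adjustment called 81 of 271 entries (29.9%) between the lines, 60 of them higher in HGC27. The log2 difference of HGC27 minus AGS was −1.76 ± 1.26 (SE, adjusted p = 0.328, edgeR) for hsa-miR-548e-3p, −1.03 ± 1.43 (adjusted p = 0.624, edgeR) for hsa-miR-330-3p and 1.23 ± 1.13 (adjusted p = 0.461, edgeR) for hsa-miR-140-3p, where the median of all tested entries was 0.63. hsa-miR-140-5p was higher in HGC27, at 3.47 ± 1.27 (adjusted p = 0.0240, edgeR). The p-values of this fit rest on spread pooled over the tested entries. With no normalization beyond the library totals, hsa-miR-548e-3p and hsa-miR-330-3p changed direction, to 0.92 and 1.59, and hsa-miR-140-3p passed the test at 3.83 (adjusted p = 0.00592, edgeR). With these totals counted without hsa-miR-372-3p, the 3 values were −0.78, −0.01 and 2.24. hsa-miR-140-5p did not pass without the filter on low counts, without the covariate or in DESeq2 (adjusted p = 0.0742).

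miRNA markers of cell types were set beside this contrast. The 6 epithelial miRNAs (miR-200 family, miR-141 and miR-203a) had a summed score of 780 and 371 in HGC27 with the negative and positive probe and 10294 and 821 in AGS. The 4 mesenchymal miRNAs (miR-199a, miR-214, miR-143 and miR-145) summed to 3359 and 3331 in HGC27 and to 11 and 38 in AGS. The near-equal sums in HGC27 hide opposite changes. There the log2 probe ratio was −6.91 for hsa-miR-199a-3p, −1.64 for hsa-miR-214-3p and 2.26 for hsa-miR-143-3p. Of 5 blood miRNAs, 4 were at 0 in each library and the summed score was 1 to 6. The 2 neuron miRNAs (miR-124 and miR-9) summed to 726 and 1690 in HGC27 and to 1 and 4 in AGS, with 1 of them at 0 in each library. The 2 muscle miRNAs (miR-1 and miR-133a) summed to 117 and 38 in HGC27 and to 8 and 15 in AGS, again with 1 at 0 in each. The liver miRNA miR-122 had scores of 13 and 11 in HGC27 and 1 and 11 in AGS. Epithelial, mesenchymal, neuron and muscle sums thus differed between the lines, and several also between the probes, and their part in the members' values was not tested.

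The FN1 3′-UTR was searched for the complement of each member's seed, since the probes were made to this region. The annotated 3′-UTR of FN1 spans 1101 bases in 1 exon (GRCh38, chr2:215360454-215361554, gene on the minus strand), and the sequence of the probes themselves was not used here. The letters CAGTTTT (miR-548e-3p), TGCTTTG (miR-330-3p) and CTGTGGT (miR-140-3p) had no match on the sense strand. On the antisense strand, 1 match was found for miR-548e-3p, at chr2:215360707-215360713, and none for the others. It is shown as the only place in either strand that holds a member's full seed complement, in capitals, 5′ to 3′ on the antisense strand, from chr2:215360696-215360718.
FN1 3′-UTR antisense: caaaaaccaatCAGTTTTtgtag

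Bases 1 to 9 of hsa-miR-548e-3p were complementary to this stretch in 1 run. A full seed complement, whatever the run around it, was present for 7.37% of the 570 known entries on the sense strand and for 7.72% on the antisense strand.

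The probe ratios of the table differed with base content, and the members did not share one. Among known entries with at least 10 counts, the median log2 ratio was −0.91 in the quartile with the least G and C and 0.47 in that with the most in HGC27, and −0.59 and 1.32 in AGS. hsa-miR-548e-3p belonged to the quartile with the least G and C, in which 48.2% of 56 entries were depleted in HGC27 and 42.9% of 42 in AGS. hsa-miR-330-3p and hsa-miR-140-3p belonged to the quartile with the most, in which 21.3% of 75 and 18.3% of 60 were depleted, and hsa-miR-140-3p lay on the lower edge of that quartile in HGC27. The 3p arms had a lower median than the 5p arms, −0.44 against −0.07 in HGC27 and −0.22 against 0.58 in AGS. These medians describe single libraries and carry no test.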

How the data were processed

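RNA recovered by pull-down was sequenced as small RNA libraries, and the authors deposited raw counts of tags per mature miRNA together with a normalized score. The deposited score is tags per 1000000 aligned, rounded to whole numbers by the authors. The submitters' processing notes name cutadapt 1.9.3, Novoalign 3.02.12 and the build hg38. The 901 rows were collapsed to 843 names (570 known, 273 predicted by the authors), as a miRNA with several precursors was repeated. The lowest listed count was 2, and a blank was taken as 0. The divisors recovered from count and score exceeded the table totals, which were 35.7% to 50.0% of them. The reason is not given in the sources used here.

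The probe ratio was (score + 1) with the positive probe over (score + 1) with the negative probe. Folds and their exact conditional 95% intervals used counts and recovered divisors (scipy 1.17.1, Python 3.11.15). The line test used edgeR 4.0.16 in R 4.3.3 on raw counts (TMM, filterByExpr, threshold 0.05), with DESeq2 1.42.0 as an alternative. It had 1 residual degree of freedom and a common biological coefficient of variation of 0.612, shared by all entries. The probes stand in for replicates there, so its p-values measure only the spread between these libraries. The SE printed with each log2 difference was back-calculated from that difference and the F statistic of the test. Interval and test scripts were checked on simulated data. For the test, the simulated counts had a lower coefficient of variation than these libraries, levels averaged over the libraries and no probe effect. That check therefore does not show how the test performs on these libraries. No test was made between probes, as each group had 1 library and the members were chosen by that contrast.

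The members and lists were chosen with earlier results of these data known. Named entries were the members, the opposite arms, seed mates, the miR-548 entries with at least 10 counts, predicted entries overlapping an arm, and the 3 known entries with the most similar profile to each member. The other entries at a log2 ratio of −3 or lower in both lines, and the 4 just above it, were named after their values were seen.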

Additional observations from a re-analysis of the deposited data

How the results depend on the processing

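The 6 probe ratios of the members were recomputed under 7 other scalings or pseudocounts. All 42 values stayed at or below −1 and 36 stayed within the counting interval. In AGS, the members (hsa-miR-548e-3p, hsa-miR-330-3p and hsa-miR-140-3p) reached −7.69, −8.08 and −5.17 without hsa-miR-372-3p in the totals. The values outside the interval came with a pseudocount of 10, which gave −3.60 and −2.83 for hsa-miR-548e-3p in HGC27 and AGS, −2.63 and −3.16 for hsa-miR-330-3p and −3.41 and −1.50 for hsa-miR-140-3p. hsa-miR-140-5p in AGS went to 0.38 with a pseudocount of 10 and to 1.93 with unrounded values, and to between 3.15 and 4.95 under the other 5 settings. The log2 ratio of miR-140 3p minus that of 5p ran from −4.29 to −3.84 in HGC27 under the 7 settings. In AGS it ran from −8.94, without hsa-miR-372-3p in the totals, to −1.88, with a pseudocount of 10. Scaling without hsa-miR-372-3p moved the median log2 ratio of AGS entries from 0.42 to −0.95. The other miR-548 entries with at least 10 counts stayed below 0 under each of the 7 settings, but with a pseudocount of 10 only 2 of 6 in HGC27 and 0 of 4 in AGS were depleted. The share of all entries depleted under that pseudocount is not given here. The median log2 ratio of these miR-548 entries was then −0.69 in HGC27 and −0.39 in AGS, where all entries with at least 10 counts had −0.08 and 0.19.

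Of the entries with a count, 257 were depleted in HGC27 and 104 in AGS. Requiring 10 counts left 122 in HGC27, a ratio of at most 0.25 left 62 and 40, and TMM scaling gave 168 and 177. For the line test, library totals gave 169 calls in place of 81, and no filter on low counts gave 0 calls, with 95 entries at an unadjusted p under 0.05 against 106 in the reported fit. DESeq2 gave 65 calls. hsa-miR-548e-3p reversed to 0.92 with library totals and, in scores of single probes without a test, to 0.99 for the negative and 0.58 for the positive probe. hsa-miR-330-3p reversed to 1.59, 0.44 and 2.58. hsa-miR-140-3p became 3.83 with library totals, and 4.06 and 3.37 in the scores of the negative and positive probe. The cause was not tested. No paired analysis was possible because the labels give no replicate numbers. The line test did compare the lines within each probe through its covariate, without which it made 65 calls. No library could be left out within a group of 1. Counts of 3 to 7 in the AGS positive probe library limit how precisely its folds are known.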
